A study of Mus musculus with 6 samples.

Results

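Chemokine ligands are the 35 genes, of 18181 in the expression table, whose symbol begins with Ccl, Cxcl, Cx3cl or Xcl followed by a digit. The rule reads symbols and no measured value, and the genes comprise 21 CC ligands, 12 CXC ligands, 1 CX3C ligand and 1 C ligand. Heart ventricle was taken from C57BL6 mice, an inbred strain with no engineered allele or treatment in the labels, at 24 to 26 months (aged, 3 libraries) and at 6 to 8 weeks (young, 3 libraries). Poly(A) messenger RNA was sequenced and is given as FPKM, fragments normalised for transcript length and for the number mapped in the library, so levels of different genes are on a scale per transcript length. The samples are said to be separate, but the labels do not tie each to its own mouse, so p-values measure the spread between these samples, which may be partly technical.

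Chemokines are small secreted proteins that guide leukocytes along a gradient by binding G protein-coupled receptors; the names CC, CXC, CX3C and C describe the spacing of conserved cysteines near the start of the protein. Some are made constitutively and place cells in tissues and lymphoid organs, as Cxcl12 and Ccl21a do, whereas others are induced in stromal cells, endothelium and macrophages during inflammation. In the heart, Ccl2 and its relatives are known for recruiting blood monocytes through Ccr2, and fractalkine, the product of Cx3cl1, binds Cx3cr1 on monocytes and resident macrophages. Atypical receptors bind chemokines without classical G protein signalling and remove them.

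Total FPKM per library ran between 541507 and 566499 in aged and between 529258 and 548912 in young ventricle. Cardiomyocyte markers summed to 46310 to 49610 FPKM in aged and 40020 to 43570 FPKM in young libraries, so the labelled tissue was represented in all of them. Transcripts of stratified epithelium stood in 2 aged libraries: the keratin gene Krt13 reached 151.66 FPKM in aged replicate 1 and 250.31 FPKM in aged replicate 2, and was listed at 0 in aged replicate 3 and in every young library. Results are therefore also given from a single-library fit, which sets aged replicate 3 alone against the young libraries and assumes that it varies like the others. On the first principal component of the tested genes the coordinate of aged replicate 3 was -11.3, those of the other aged libraries were -26.4 and -28.6, and young ones ran from 17.8 to 24.4. Tissue RNA was pooled over cells, so fewer cells of a type and less RNA per cell cannot be told apart in any value that follows.

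Old ventricle held more messenger RNA for 9 chemokine ligands and less for 2. The higher ones were Ccl8, Ccl11, Cxcl14, Cxcl13, Ccl5, Ccl7, Cx3cl1, Cxcl1 and Cxcl12; the lower ones were Cxcl9 and Cxcl10, the interferon-inducible ligands of Cxcr3. Of the 35 members, 22 had a mean of at least 1 FPKM over the 6 libraries and were tested, and a gene was called at an adjusted p under 0.05 (limma on log2(FPKM + 1), Benjamini-Hochberg adjustment over all 11860 tested genes). Of these 22, 9 (40.9%) were called higher and 2 (9.09%) lower, while over all tested genes 26.4% were called, 9.32% higher and 17.1% lower. The filter, applied alike to all genes, used the mean over both ages. Ccl8, Ccl11 and Cxcl13, with young means of 0.413, 0.343 and 0.03 FPKM, passed it through their aged level alone. Cxcl10, with an aged mean of 0.757 FPKM, passed it through its young level alone. The filter thus shaped these counts in part. The median log2 difference was 0.22 over tested members and -0.06 over all tested genes. In 8 of the tested members every aged library lay above every young one, against 15.2% of all tested genes, and in 2 every aged library lay below, against 27.9%. The counts of 9 and 2 also stood with median-of-ratios and quantile scaling, and were 9 and 3 after rescaling to TPM.

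**Figure D1:**
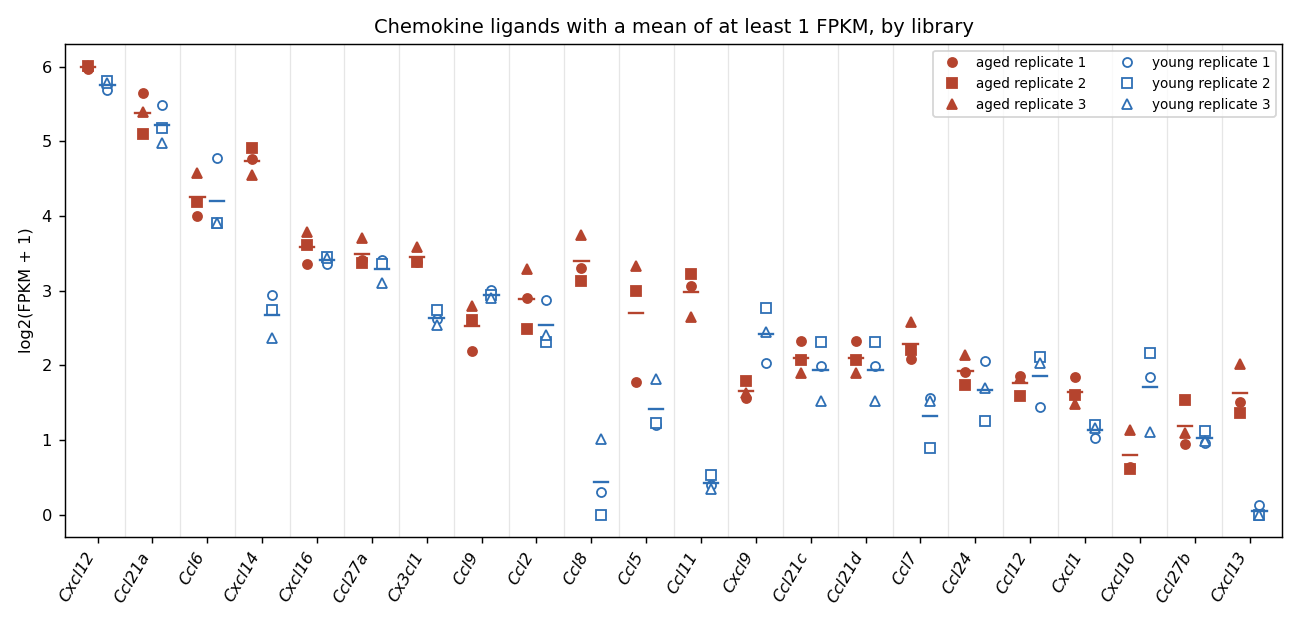
Level of each of the 22 tested chemokine ligands as log2(FPKM + 1), ordered by mean level; filled symbols are the 3 aged libraries, open symbols the 3 young ones, and bars the mean of each age. Cxcl12 and Ccl21a lead at both ages, and Ccl8, Ccl11, Cxcl13 and Cxcl14 show the widest gaps between ages.

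Cxcl12 and Ccl21a were the most abundant members at both ages. Summed over all members, ligand messenger RNA was 239.0, 234.1 and 256.4 FPKM in the aged libraries and 189.7, 175.4 and 162.1 FPKM in the young ones, without overlap. Cxcl12 and Ccl21a together made up 46.6, 41.2 and 40.6% of that sum in aged and 49.9, 51.5 and 52.3% in young libraries. The remaining members summed to 127.6, 137.5 and 152.3 FPKM in aged and 95.03, 85.06 and 77.36 FPKM in young ventricle. By mean level Cxcl12 ranked 1 and Ccl21a 2 at both ages, Cxcl14 ranked 3 in aged and 7 in young, Ccl8 8 in aged and 21 in young, and Ccl11 9 in aged and 23 in young.

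**Figure D2:**
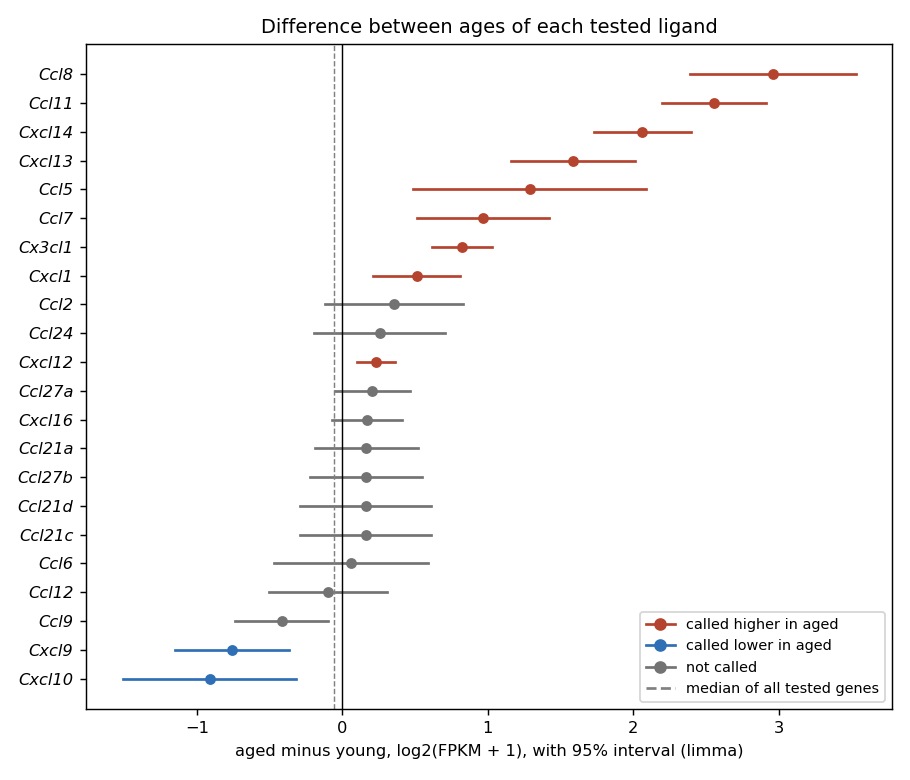
Difference in log2(FPKM + 1), aged minus young, of each tested ligand with its 95% interval from limma; red marks members called higher in aged, blue those called lower and grey those not called. The dashed line is the median of all tested genes, -0.06, and the intervals of Ccl8, Ccl11, Cxcl14 and Cxcl13 lie wholly above 1.

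The bases before the start site are shown for Ccl8 and Cxcl1, which were higher, and for Cxcl9 and Cxcl10, which were lower. Capitals mark matches, on either strand, to a TATA box (TATAAA), an NF-kappa-B site (a 10-base consensus), an interferon response core (AAANNGAAA), an interferon-gamma activated core (TTCNNNGAA) or an AP-1 site (TGANTCA). Sequences are from RefSeq promoter windows of build GRCm38.p6, printed 5′ to 3′ on the gene's strand and ending at the base before the start site. Ccl8 is at chr11:82114935-82115184 (plus strand), Cxcl1 at chr5:90890995-90891244 (plus), Cxcl9 at chr5:92328080-92328329 (minus) and Cxcl10 at chr5:92348890-92349139 (minus).
Ccl8: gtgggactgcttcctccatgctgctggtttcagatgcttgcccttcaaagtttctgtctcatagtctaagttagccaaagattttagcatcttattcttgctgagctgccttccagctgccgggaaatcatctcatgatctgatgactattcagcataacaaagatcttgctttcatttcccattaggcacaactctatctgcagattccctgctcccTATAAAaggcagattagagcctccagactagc
Cxcl1: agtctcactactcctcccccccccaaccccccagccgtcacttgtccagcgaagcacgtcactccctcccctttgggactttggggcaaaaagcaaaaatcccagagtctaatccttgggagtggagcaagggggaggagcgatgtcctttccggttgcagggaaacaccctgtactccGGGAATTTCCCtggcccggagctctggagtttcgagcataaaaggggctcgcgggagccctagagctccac
Cxcl9: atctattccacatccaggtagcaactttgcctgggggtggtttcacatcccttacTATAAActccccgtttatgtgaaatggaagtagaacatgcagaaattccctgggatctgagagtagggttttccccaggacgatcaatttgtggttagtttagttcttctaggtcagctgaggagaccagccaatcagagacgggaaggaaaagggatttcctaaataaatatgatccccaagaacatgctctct
Cxcl10: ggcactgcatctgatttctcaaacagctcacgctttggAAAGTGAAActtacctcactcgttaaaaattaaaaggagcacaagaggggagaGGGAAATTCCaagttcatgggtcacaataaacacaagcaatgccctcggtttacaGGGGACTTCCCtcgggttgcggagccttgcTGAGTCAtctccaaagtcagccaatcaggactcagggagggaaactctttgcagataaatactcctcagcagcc
Ccl8 showed a TATA box beginning 32 bases before the start and no other match. The stretch of Cxcl9 held a TATA box match at -195 and no other. Cxcl1 had 2 overlapping NF-kappa-B matches at -71 and -70. Cxcl10 had NF-kappa-B matches at -159 and, overlapping each other, at -104 and -103, an interferon response core at -212 and an AP-1 site at -74.

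Windows of this kind, 250 bases before to 50 after the start, were found for 25 of the 35 members (31 windows, including 6 of the 9 higher and both lower ligands). An NF-kappa-B match stood in 6 of the 31 windows and in 8.46% of all 32851 windows of the table; the members with one were Ccl9, Ccl27a, Cxcl1, Cxcl2, Cxcl3 and Cxcl10. An interferon response core stood in 5 member windows and in 10.6% of all windows, an interferon-gamma activated core in 2 and in 8.3%, an AP-1 site in 7 and in 7.81%, and a TATA box in 10 and in 13.6%. A match is a stretch of letters, not a bound site, and several members have more than 1 window. The window of Cxcl14 surrounds a start inside its annotated span and is not shown.

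Monocyte chemoattractants and eotaxins lie side by side on chromosome 11 in the order Ccl2, Ccl7, Ccl11, Ccl12 and Ccl8, between positions 82035577 and 82116799 of GRCm38. In that cluster Ccl8, Ccl11 and Ccl7 rose with age, and Ccl2 and Ccl12 were not called. Ccl8, a ligand of Ccr8 in mouse (82115185 to 82116799), was at 8.89, 7.74 and 12.43 FPKM in aged and 0.23, 0 and 1.01 FPKM in young libraries. Every aged value was more than 7 times the highest young value. The means were 9.69 ± 2.44 FPKM in aged and 0.413 ± 0.529 FPKM in young ventricle (SD, n = 3 each), and the log2 difference was 2.96 (SE 0.252, limma adjusted p = 0.000118).

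Ccl11 encodes eotaxin, which attracts eosinophils through Ccr3, and lies at 82057832 to 82062955. It was at 7.35, 8.36 and 5.24 FPKM in aged and 0.31, 0.45 and 0.27 FPKM in young libraries. The aged mean of 6.98 ± 1.59 FPKM was 20.3 times the young mean of 0.343 ± 0.0945 FPKM (SD, n = 3 each; log2 difference 2.55, SE 0.156, limma adjusted p = 2.42e-05). Aged replicate 3, the aged library without Krt13 transcripts, had the lowest aged value of Ccl11 and the highest of Ccl8. The single-library fit gave log2 differences of 3.31 for Ccl8 (limma adjusted p = 0.00453) and 2.22 for Ccl11 (limma adjusted p = 0.00192).

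Ccl7, a Ccr2 ligand that draws monocytes from bone marrow into blood (82045712 to 82047525), was at 3.25, 3.60 and 4.98 FPKM in aged and 1.94, 0.86 and 1.87 FPKM in young libraries. Its aged values all exceeded its young ones, with a mean 2.53-fold higher (log2 difference 0.97, SE 0.199, limma adjusted p = 0.00833; 1.26 and 0.0399 in the single-library fit). Ccl2, the main Ccr2 ligand (82035577 to 82037452), was at 6.46, 4.58 and 8.74 FPKM in aged and 6.34, 3.97 and 4.32 FPKM in young libraries. The ages overlapped for Ccl2, with a log2 difference of 0.35 (95% interval -0.12 to 0.83, limma adjusted p = 0.243). Ccl12, a mouse Ccr2 ligand (82101845 to 82103399), was at 2.61, 2.0 and 2.56 FPKM in aged and 1.71, 3.31 and 3.07 FPKM in young libraries, also overlapping (log2 difference -0.10, 95% interval -0.51 to 0.31, limma adjusted p = 0.718). Ccl24, which encodes a second eotaxin and lies on chromosome 5, was at 2.76, 2.33 and 3.40 FPKM in aged and 3.17, 1.38 and 2.25 FPKM in young libraries. The ages of Ccl24 overlapped and it was not called (log2 difference 0.26, 95% interval -0.19 to 0.71, limma adjusted p = 0.377).

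**Figure D3:**
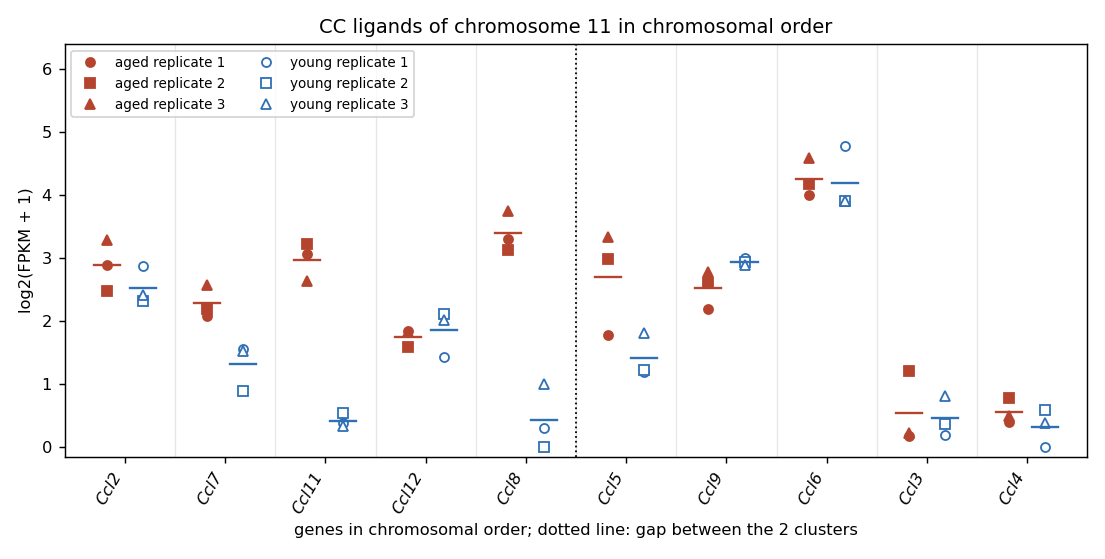
Level as log2(FPKM + 1) of the CC ligands in the 2 chromosome 11 clusters, in chromosomal order and not to scale; filled symbols are aged libraries, open symbols young ones, bars the mean of each age. In the first cluster Ccl7, Ccl11 and Ccl8 are separated by age while Ccl2 and Ccl12 overlap, and in the second the aged values of Ccl5 spread over the widest range.

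Markers of the cells these ligands attract did not move as one. The monocyte marker Ly6c2 was at 1.31, 1.24 and 1.89 FPKM in aged and 0.59, 0.51 and 0.46 FPKM in young libraries. It was called higher (log2 difference 0.70, limma adjusted p = 0.00933), the 1 marker called of 2 tested. With a young mean of 0.52 FPKM, Ly6c2 passed the filter through its aged level alone. F13a1, the other, made up most of the sum of the 5 monocyte markers, 17.06 to 20.85 FPKM in aged and 20.33 to 22.97 FPKM in young ventricle. The 4 markers other than F13a1, Ly6c2 among them, summed to 2.35 to 2.62 FPKM in aged and 1.18 to 1.65 FPKM in young ventricle. Below the filter, Ms4a4c was lower without overlap (0.18, 0.13 and 0.08 FPKM in aged, 0.26, 0.35 and 0.23 FPKM in young libraries). Plac8 and Chil3 overlapped. Of 13 macrophage markers 0 were called higher and 2, Csf1r and Mrc1, lower (limma; 0 and 6 at an unadjusted p under 0.05), a share near the 17.1% lower over all tested genes, and their sum was 309.2 to 372.2 FPKM in aged and 379.9 to 397.0 FPKM in young libraries. The 3 eosinophil markers were at 0 in every aged library and summed to at most 0.51 FPKM in young ones. Of 6 fibroblast markers 3 were lower and 0 higher (limma; 3 and 1 at an unadjusted p under 0.05, and 1 higher with median-of-ratios scaling). Of 6 mural cell markers 4 were lower (limma). They summed to 320.8 to 369.8 FPKM in aged and 840.6 to 942.5 FPKM in young libraries, a gap set mostly by the actin gene Acta2; the 5 others summed to 269.5 to 296.1 FPKM in aged and 305.6 to 371.0 FPKM in young libraries. Among mast cell markers Mcpt4 was higher and Kit lower (limma). Mcpt4 was at 2.59, 3.34 and 1.33 FPKM in aged and 0.78, 0.8 and 1.19 FPKM in young libraries. With a young mean of 0.923 FPKM, it passed the filter through its aged level alone. Cpa3, Tpsb2 and Cma1 also had higher aged means, but their ages overlapped. Like Mcpt4, they were highest in aged replicates 1 and 2, the libraries with Krt13 transcripts. The part of cell numbers in the ligand differences was not tested.

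The second chromosome 11 cluster holds Ccl5, Ccl9, Ccl6, Ccl3 and Ccl4. Ccl5, made by T cells and other leukocytes and read by receptors that include Ccr1 and Ccr3 (83525778 to 83530518), was at 2.43, 6.95 and 9.05 FPKM in aged and 1.3, 1.33 and 2.52 FPKM in young libraries. The ages overlapped, since aged replicate 1 lay just below young replicate 3. The mean was 3.58-fold higher in aged ventricle (6.14 ± 3.38 FPKM in aged, 1.72 ± 0.696 FPKM in young, SD, n = 3 each; log2 difference 1.29, SE 0.355, limma adjusted p = 0.0276). The call was lost in 6 of 17 alternatives, with limma adjusted p up to 0.111; without aged replicate 3 the log2 difference was 0.97 (limma adjusted p = 0.0673), and without aged replicate 2, young replicate 1 or young replicate 2 the adjusted p was 0.0871, 0.0738 and 0.0825. The 7 T cell markers were each below the 1 FPKM filter. They summed to 4.37, 3.75 and 4.35 FPKM in aged and 1.87, 3.51 and 2.03 FPKM in young libraries. Without Cd3g the 6 others summed to 2.66 to 3.71 FPKM in aged and 1.44 to 2.85 FPKM in young libraries, which overlap. Of the 7 markers Cd3d alone separated the ages, as 8.47% of genes under the filter did in that direction. It was at 0.70, 0.51 and 0.39 FPKM in aged and 0.33, 0.26 and 0.22 FPKM in young libraries. The part of T cells in the level of Ccl5 was not tested.

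Ccl6 and Ccl9 are rodent ligands of Ccr1 and were among the better expressed CC members. Ccl9 was at 3.58, 5.07 and 5.91 FPKM in aged and 7.03, 6.65 and 6.45 FPKM in young libraries. All aged values of Ccl9 lay below the young ones, but the difference missed the threshold (log2 difference -0.42, 95% interval -0.74 to -0.10, limma adjusted p = 0.0561); it was called in 4 of 18 alternatives, among them TPM (limma adjusted p = 0.0414). Ccl6 was at 15.08, 17.19 and 22.96 FPKM in aged and 26.41, 14.0 and 13.96 FPKM in young libraries. Young replicate 1 held its highest value and the ages overlapped (log2 difference 0.06, 95% interval -0.47 to 0.59, limma adjusted p = 0.871).

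Cxcl14, a conserved CXC ligand that many epithelia make constitutively, rose with age. Cxcl14 (chromosome 13, 56288643 to 56296811) was at 26.22, 29.00 and 22.51 FPKM in aged and 6.69, 5.66 and 4.14 FPKM in young libraries. The lowest aged library was more than 3 times the highest young one. The aged mean of 25.9 ± 3.26 FPKM was 4.71 times the young mean of 5.50 ± 1.28 FPKM (SD, n = 3 each; log2 difference 2.06, SE 0.147, limma adjusted p = 5.03e-05). The 9 markers of stratified epithelium summed to 271.4, 436.3 and 1.98 FPKM in aged and 2.07, 1.26 and 2.0 FPKM in young libraries. In the single-library fit, without the 2 libraries that held Krt13, the log2 difference of Cxcl14 was 1.88. The part of epithelium in the level of Cxcl14 was not tested.

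Cxcl13, the ligand of Cxcr5 that draws B cells into follicles (chromosome 5, 95956939 to 95961068), was at 1.84, 1.56 and 3.03 FPKM in aged libraries. In young libraries Cxcl13 was at 0.09, 0 and 0 FPKM, which an estimate from low values puts at about 1 sequenced fragment or none. The log2 difference was 1.58 (SE 0.187, limma adjusted p = 0.000645), and 1.97 in the single-library fit (limma adjusted p = 0.00321). Beside it, 5 B cell markers summed to 3.17, 2.32 and 3.51 FPKM in aged and 3.16, 4.11 and 2.45 FPKM in young libraries, which overlap. Of these Jchain alone separated the ages, as 8.47% of genes under the filter did in that direction. It was at 0.24, 0.32 and 0.24 FPKM in aged and 0, 0 and 0.05 FPKM in young libraries, near the floor. Cxcr5 was at 0.20, 0.13 and 0.35 FPKM in aged and 0.21, 0.04 and 0.07 FPKM in young libraries.

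Cxcl9 and Cxcl10, neighbours on chromosome 5 that interferon-gamma induces and that attract T cells through Cxcr3, moved the other way. Cxcl9 (92321331 to 92328079) was at 1.94, 2.45 and 2.09 FPKM in aged and 3.08, 5.78 and 4.46 FPKM in young libraries. Aged values of Cxcl9 all lay below the young ones, with a mean 2.06-fold lower (log2 difference -0.76, SE 0.173, limma adjusted p = 0.0131; -0.79 and 0.112 in the single-library fit). Cxcl10 (92346638 to 92348889) was at 0.56, 0.52 and 1.19 FPKM in aged and 2.58, 3.47 and 1.16 FPKM in young libraries. Aged replicate 3 slightly exceeded young replicate 3, so the ages overlapped (mean 3.18-fold lower, log2 difference -0.91, SE 0.262, limma adjusted p = 0.0323). The call of Cxcl10 was lost in 7 of 17 alternatives, among them each fit without aged replicate 1, aged replicate 2, young replicate 1 or young replicate 2 (limma adjusted p = 0.101, 0.0953, 0.0821 and 0.104), and in the single-library fit (limma adjusted p = 0.354). Their receptor Cxcr3 was at 0.44, 0.28 and 0.72 FPKM in aged and 0, 0.28 and 0.24 FPKM in young libraries. Markers of NK cells, which Cxcr3 ligands also attract, summed to 0.21, 0.56 and 0.38 FPKM in aged and 1.64, 2.29 and 0.83 FPKM in young libraries. Gzma set that gap, at 0.12, 0.52 and 0 FPKM in aged and 1.38, 1.81 and 0.79 FPKM in young libraries. The 3 other markers summed to 0.04 to 0.38 FPKM in aged and 0.04 to 0.48 FPKM in young libraries, which overlap. The part of NK cells in the result was not tested.

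Of 4 members known to attract neutrophils through Cxcr2 (Cxcl1, Cxcl2, Cxcl3 and Cxcl5), Cxcl1 alone had a mean over 1 FPKM. Cxcl1 (chromosome 5, 90891245 to 90893121) was at 2.59, 2.03 and 1.79 FPKM in aged and 1.04, 1.3 and 1.24 FPKM in young libraries. The ages did not overlap, and the mean was 1.79-fold higher in aged ventricle (log2 difference 0.51, SE 0.133, limma adjusted p = 0.0223). That call was lost without aged replicate 1, aged replicate 2, young replicate 1 or young replicate 3 (limma adjusted p = 0.087, 0.0533, 0.0521 and 0.0606) and in the single-library fit (log2 difference 0.35, limma adjusted p = 0.235). The neutrophil genes S100a8 and S100a9, which keratinocytes also express, were highest in the 2 libraries with Krt13 transcripts. S100a8 was at 17.38, 26.85 and 2.91 FPKM in aged and 0.61, 3.13 and 0.27 FPKM in young libraries. They were the 2 genes called higher of 3 tested in a list of 9 neutrophil genes, which summed to 7.99 to 69.31 FPKM in aged and 2.04 to 11.7 FPKM in young libraries; in the single-library fit 0 of the 3 were called (limma; 1 higher at an unadjusted p under 0.05). Csf3r, the receptor of granulocyte colony-stimulating factor, was at 1.14, 1.68 and 1.71 FPKM in aged and 0.73, 1.1 and 0.62 FPKM in young libraries. Its ages did not overlap (limma adjusted p = 0.0579), and it was called with median-of-ratios scaling. With a young mean of 0.817 FPKM, Csf3r passed the filter through its aged level alone. Ly6g and Elane, neutrophil-restricted genes, were listed at 0 in all aged libraries and in all but 1 young library. Ngp and Camp, also of the list, were at 0 in all aged libraries too. In young libraries Ngp was at 0.28, 1.83 and 0.25 FPKM, without overlap, and Camp at 0.38, 0.98 and 0 FPKM. The ages overlapped for Mpo and Retnlg.

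Cxcl12, which retains cells bearing Cxcr4 in their niches, was the most abundant member and changed little. It was at 61.97, 63.21 and 63.24 FPKM in aged and 50.64, 55.17 and 54.17 FPKM in young libraries (chromosome 6, 117168535 to 117181368). The aged libraries lay above the young ones by a narrow margin, with a mean 1.18-fold higher (log2 difference 0.23, SE 0.0574, limma adjusted p = 0.0175). Without young replicate 3 the adjusted p was 0.0541, and in the single-library fit it was 0.125. Cxcl16, a membrane-bound ligand of Cxcr6 on chromosome 11, was at 9.27, 11.18 and 12.80 FPKM in aged and 9.25, 9.93 and 9.84 FPKM in young libraries. Its ages overlapped (log2 difference 0.17, 95% interval -0.07 to 0.41, limma adjusted p = 0.278).

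Cx3cl1, the fractalkine gene (chromosome 8, 94772180 to 94782427), encodes a membrane-bound ligand of endothelium and neurons that is also shed. It was at 9.48, 9.42 and 11.05 FPKM in aged and 5.13, 5.69 and 4.83 FPKM in young libraries. The spread within each age was small and the ages were far apart, with means of 9.98 ± 0.924 FPKM in aged and 5.22 ± 0.437 FPKM in young ventricle (SD, n = 3 each), 1.91-fold higher (log2 difference 0.82, SE 0.0916, limma adjusted p = 0.000486). In the single-library fit the log2 difference was 0.96 (limma adjusted p = 0.0107). Of 6 endothelial markers 4 were lower in the same libraries, Pecam1, Cdh5, Tie1 and Esam, against 17.1% of all tested genes (limma). Kdr and Emcn overlapped and were not called (limma adjusted p = 0.727 and 0.888). The 6 markers of that list summed to 292.0 to 310.8 FPKM in aged and 373.7 to 452.1 FPKM in young ventricle.

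Ccr7 ligands guide dendritic cells and naive lymphocytes into lymph nodes. Ccl21a, made by lymphatic endothelium, was at 49.39, 33.33 and 40.93 FPKM in aged and 44.00, 35.14 and 30.60 FPKM in young libraries, with overlap (log2 difference 0.17, 95% interval -0.19 to 0.52, limma adjusted p = 0.473). The 4 markers of lymphatic endothelium summed to 26.08 to 29.66 FPKM in aged and 26.27 to 26.85 FPKM in young ventricle. Of 3 tested 0 were called (limma), and at an unadjusted p under 0.05 Flt4 alone was lower. Reln, below the filter, alone separated the ages, at 0.79, 0.72 and 0.69 FPKM in aged and 0.54, 0.50 and 0.52 FPKM in young libraries. Ccl21c and Ccl21d carry identical values in every library, 4.03, 3.19 and 2.72 FPKM in aged and 2.97, 3.96 and 1.86 FPKM in young ones, so they are 1 measurement, though both stand in the counts of members and alternatives (log2 difference 0.16, 95% interval -0.29 to 0.61, limma adjusted p = 0.59). Near-identical gene copies could share reads: 50.3% of the 100-base windows in the Ccl21a transcript also occur in transcripts of other genes, so its level is uncertain. Ccl19, the other Ccr7 ligand, was below the filter, with 1.92, 0.50 and 0.79 FPKM in aged and 0.18, 0 and 0 FPKM in young libraries. Every aged value of Ccl19 exceeded every young one, as in 8.47% of the 6044 genes that had a value but a mean under 1 FPKM; an exact two-sided permutation test gave p = 0.1, the smallest that 3 against 3 allow. In fits with a minimum mean of 0.25 FPKM and with no filter Ccl19 was called higher (log2 difference 0.91, limma adjusted p = 0.0229 and 0.0404), and 39.3% of its windows occur in other transcripts.

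Ccl27a and Ccl27b encode near-identical skin-associated ligands of Ccr10. Ccl27a was at 9.67, 9.34 and 12.04 FPKM in aged and 9.63, 9.22 and 7.63 FPKM in young libraries (log2 difference 0.21, 95% interval -0.05 to 0.47, limma adjusted p = 0.218). Ccl27b was at 0.92, 1.89 and 1.13 FPKM in aged and 0.95, 1.18 and 0.98 FPKM in young libraries (log2 difference 0.16, 95% interval -0.22 to 0.55, limma adjusted p = 0.519). Neither separated the ages, and 97.9% of Ccl27b windows occur in other transcripts.

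Near the floor stood 13 members with a mean under 1 FPKM, of which Cxcl3 was listed at 0 in every library. Whole fragments could be read only roughly from the FPKM. In genes with 1 annotated transcript of 450 to 1500 bases, 52.9 to 57.9% of the low values of a library lay within 0.1 of a whole number of fragments. Evenly spread values would give 20.0% at a depth fixed beforehand. Here the depth of each library and a shared length offset were chosen to make that share as large as possible. The gap to 20.0% is therefore not a test of the steps. The implied depth was 10100000, 9000000 and 8000000 fragments in aged and 9500000, 9500000 and 10600000 fragments in young libraries. On that estimate 1 fragment is worth 0.204 to 0.27 FPKM for Xcl1, which was at 0.21, 0.23 and 0.27 FPKM in aged and 0, 0.23 and 0.20 FPKM in young libraries. Xcl1, the C ligand that attracts cross-presenting dendritic cells, thus stood at about 1 fragment in 5 libraries and none in young replicate 1. The same estimate put Ccl17, a Ccr4 ligand, at about 1 fragment in aged replicate 1 and in young replicate 3, and none elsewhere. Xcl1 and Ccl17 were themselves among the genes used to choose the depth, so their places near 1 fragment are partly built in.

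**Figure D4:**
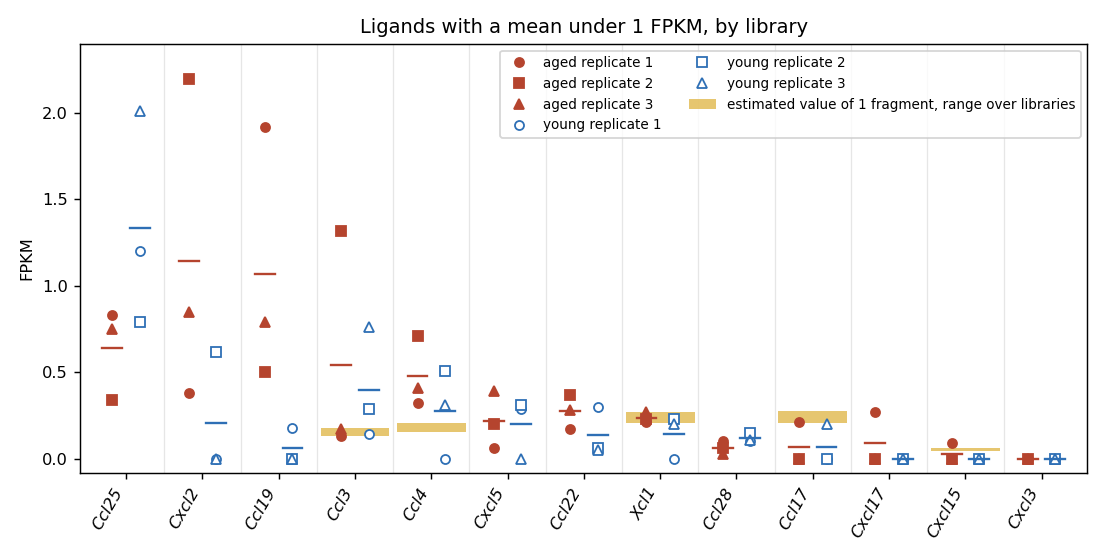
FPKM of the 13 ligands with a mean under 1 FPKM in each library; filled symbols are aged libraries, open symbols young ones and bars the mean of each age. The yellow band, drawn for single-transcript genes, is the estimated worth of 1 fragment over the 6 libraries. The values of Xcl1 and Ccl17, which were among the genes used for that estimate, lie at it or at 0.

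A few of the low members reached 1 FPKM in some library. Cxcl2, a Cxcr2 ligand, was at 0.38, 2.2 and 0.85 FPKM in aged and 0, 0.62 and 0 FPKM in young libraries; Ccl25, the thymus and gut ligand of Ccr9, was at 0.83, 0.34 and 0.75 FPKM in aged and 1.2, 0.79 and 2.01 FPKM in young ones. Ccl3, a ligand of Ccr1, was at 0.13, 1.32 and 0.17 FPKM in aged and 0.14, 0.29 and 0.76 FPKM in young libraries. Single libraries set these highs, aged replicate 2 for Cxcl2 and Ccl3 and young replicate 3 for Ccl25, and the ages overlapped for each. Ccl4, the neighbour of Ccl3, lay between 0.32 and 0.71 FPKM in aged and between 0 and 0.51 FPKM in young libraries; the annotated spans of Ccl3 and Ccl4 overlap, and no strand marking is stated. Ccl22, Cxcl5 and Ccl28 stayed between 0.03 and 0.39 FPKM in aged and between 0 and 0.31 FPKM in young ventricle, and Cxcl15 and Cxcl17 each had a value in aged replicate 1 alone, 0.09 and 0.27 FPKM.

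The floor also bears on the young values of Ccl8, Ccl11 and Cxcl13. Estimated fragments for Ccl8 were 40.5, 31.4 and 44.8 in aged and 1.0, 0 and 4.8 in young libraries. For Ccl11 they were 75.9, 76.9 and 42.8 in aged and 3.0, 4.4 and 2.9 in young libraries, and for Cxcl13 20.3, 15.3 and 26.4 in aged and 0.9, 0 and 0 in young ones. The young levels of these 3 genes thus rest on a handful of fragments each, while the aged levels do not. No fold is given for Ccl8 or Cxcl13, whose young libraries include zeros.

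Chemokine receptors, the partners of these ligands, were mostly low in ventricle: of 24 genes listed, 9 had a mean of at least 1 FPKM. Of these 1 was higher, Ccr2, and 4 were lower, Cx3cr1, Cxcr4, Ackr4 and Ackr2 (limma), against 9.32% higher and 17.1% lower over all tested genes. With median-of-ratios or quantile scaling 2 were lower, Cx3cr1 and Ackr4. The higher receptor, Ccr2, had a young mean of 0.92 FPKM and passed the filter through its aged level alone. Ackr2, with an aged mean of 0.883 FPKM, passed it through its young level alone. The filter thus shaped these receptor counts in part. Ccr2, the receptor of Ccl2, Ccl7 and Ccl12 on monocytes, was at 1.49, 2.13 and 1.84 FPKM in aged and 0.94, 0.84 and 0.98 FPKM in young libraries. Its ages did not overlap (mean 1.98-fold higher, log2 difference 0.55, SE 0.131, limma adjusted p = 0.0157), though the call was lost without aged replicate 2 (limma adjusted p = 0.0629), without young replicate 2 (limma adjusted p = 0.0526) and in the single-library fit (limma adjusted p = 0.088).

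Cx3cr1, the receptor of Cx3cl1, moved opposite to its ligand. It was at 1.48, 1.32 and 2.2 FPKM in aged and 5.55, 6.10 and 5.56 FPKM in young libraries. The mean was 3.44-fold lower in aged ventricle (1.67 ± 0.469 FPKM in aged, 5.74 ± 0.315 FPKM in young, SD, n = 3 each; log2 difference -1.35, SE 0.131, limma adjusted p = 0.000235), and the gene was called in each of its 17 alternatives. In the single-library fit its log2 difference was -1.07 (limma adjusted p = 0.00681).

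Cxcr4, the receptor of Cxcl12, was at 4.25, 5.54 and 2.62 FPKM in aged and 5.53, 8.51 and 6.89 FPKM in young libraries. Aged replicate 2 slightly exceeded young replicate 1 (log2 difference -0.66, SE 0.211, limma adjusted p = 0.0479), and the call was lost in 10 of 18 alternatives, with limma adjusted p up to 0.145. These included the fits without aged replicate 1, aged replicate 3, young replicate 2 or young replicate 3 (limma adjusted p = 0.0957, 0.0982, 0.145 and 0.119). Ackr3, the atypical receptor that scavenges Cxcl12, was the most abundant receptor, at 66.66, 61.62 and 71.51 FPKM in aged and 73.75, 67.44 and 61.33 FPKM in young libraries. Its ages overlapped, and the sign of its difference turned with the scaling.

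Ackr4, a scavenger of Ccl19, Ccl21a and Ccl25, was at 2.44, 2.01 and 2.50 FPKM in aged and 3.47, 4.14 and 6.07 FPKM in young libraries, 1.97-fold lower without overlap (log2 difference -0.72, SE 0.164, limma adjusted p = 0.0125). In the single-library fit its limma adjusted p was 0.152. Ackr2, which removes inflammatory CC ligands such as Ccl2 and Ccl5, was at 0.86, 0.60 and 1.19 FPKM in aged and 1.69, 1.54 and 1.61 FPKM in young libraries. Its ages did not overlap (1.83-fold lower, log2 difference -0.48, SE 0.146, limma adjusted p = 0.0383). The call of Ackr2 held in 8 of 17 alternatives; it was lost without any one library other than aged replicate 3, with limma adjusted p between 0.079 and 0.113. Cxcr2 and Ccrl2 were not called (limma adjusted p = 0.582 and 0.573).

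**Figure D5:**
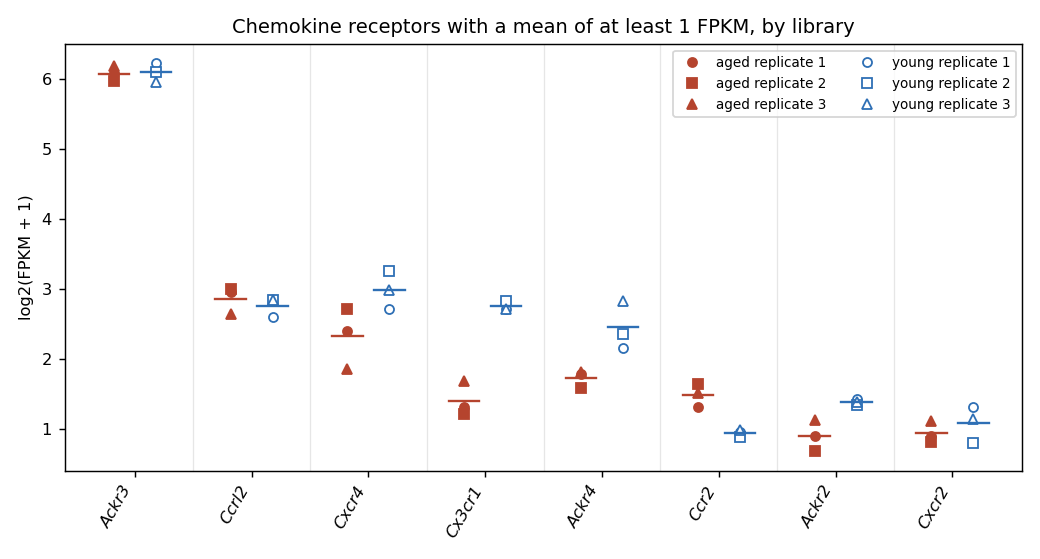
Level as log2(FPKM + 1) of 8 chemokine receptors with a mean of at least 1 FPKM; filled symbols are aged libraries, open symbols young ones and bars the mean of each age. Cx3cr1, Ackr4 and Ackr2 are lower and Ccr2 higher in all aged libraries, while Ackr3 and Ccrl2 overlap.

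Other receptors lay below the filter. Cxcr6, the receptor of Cxcl16, was at 0.48, 0.65 and 0.47 FPKM in aged and 0.06, 0.06 and 0.05 FPKM in young libraries. Ccr1, which reads Ccl5, Ccl6, Ccl7 and Ccl9, was at 0.28, 0.47 and 0.45 FPKM in aged and 0.75, 0.81 and 1.11 FPKM in young libraries. Both separated the ages, in opposite directions, and were outside the test. Every aged value lay above every young one, as for Cxcr6, in 8.47% of genes with a value but a mean under 1 FPKM. Ccr3, the eotaxin receptor, was listed at 0 in every library, and Ccr8, the receptor of Ccl8, was at 0, 0 and 0.11 FPKM in aged and at 0 in young ventricle. Ccr7 was at 0.21, 0.12 and 0.27 FPKM in aged and 0.11, 0.34 and 0.15 FPKM in young libraries, and Ccr10 between 0.29 and 0.52 FPKM in aged and 0.50 and 0.73 FPKM in young ones. Ccr9, the receptor of Ccl25, was at 0.07, 0 and 0.03 FPKM in aged and 0.22, 0.28 and 0.09 FPKM in young libraries. Its aged values all lay below the young ones, near the floor.

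Genes that act on ligands after synthesis were called lower or not called where they were tested. Of 11 tested genes for ligand cleavage and presentation, 6 were lower and 0 higher, against 17.1% lower and 9.32% higher over all tested genes (limma; 7 and 0 at an unadjusted p under 0.05), with 6 lower on TPM, 4 with median-of-ratios and 4 with quantile scaling. Mmp9, a gelatinase below the filter, was at 1.47, 1.35 and 1.84 FPKM in aged and 0.27, 0.38 and 0.27 FPKM in young libraries. Mmp2, a gelatinase that trims Ccl7 and Cxcl12, was at 33.94, 28.88 and 39.59 FPKM in aged and 55.50, 64.39 and 57.41 FPKM in young libraries (1.73-fold lower, log2 difference -0.78, limma adjusted p = 0.00149). The sheddases that release Cx3cl1 and Cxcl16 from the membrane were both lower. Adam10 was at 12.30, 13.23 and 11.35 FPKM in aged and 16.18, 18.31 and 17.31 FPKM in young libraries (1.41-fold lower, limma adjusted p = 0.00397), and Adam17 was 1.27-fold lower (limma adjusted p = 0.0159). Sdc3, a heparan sulphate proteoglycan on which chemokines can be held, was 1.32-fold lower (limma adjusted p = 0.0174), and Ext1 and Ext2, which build heparan sulphate chains, completed the 6.

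Among inducers of chemokine transcription, the cytokine genes Tnf, Il1a, Il1b, Il6, Il17a and Ifng all had means under 1 FPKM; Il1b was at 0.53, 0.58 and 1.36 FPKM in aged and 0.40, 0.25 and 0.43 FPKM in young libraries, and Ifng was listed at 0 in all but young replicate 2. Of 11 tested genes of the list 5 were lower and 0 higher, against 17.1% and 9.32% of all tested genes (limma; 7 and 0 at an unadjusted p under 0.05), with 6, 1 and 2 lower after TPM, median-of-ratios and quantile scaling. Nfkbia, the NF-kappa-B inhibitor that is itself an NF-kappa-B target, was at 26.63, 26.16 and 28.73 FPKM in aged and 41.88, 40.53 and 39.24 FPKM in young libraries (1.49-fold lower, log2 difference -0.56, limma adjusted p = 0.000498). Nfkb1 was 1.2-fold lower (limma adjusted p = 0.0189) and Ifngr2, a chain of the interferon-gamma receptor, 1.15-fold lower (limma adjusted p = 0.0271). Ifngr1 was also lower (limma adjusted p = 0.043). The other 6 were not called, among them Rela, an NF-kappa-B subunit, at 22.0 ± 0.674 FPKM in aged and 22.3 ± 0.396 FPKM in young ventricle (SD, n = 3 each; limma adjusted p = 0.824).

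Downstream of the receptors, 3 of 10 tested signalling genes were lower and 0 higher, against 17.1% and 9.32% of all tested genes (limma). At an unadjusted p under 0.05 the counts were 4 and 0. The 3 were the G protein subunits Gnb1 (1.27-fold, adjusted p = 0.00749) and Gnai3 (1.32-fold, adjusted p = 0.0255) and the arrestin Arrb1 (1.23-fold, adjusted p = 0.0409, all limma). After TPM, median-of-ratios and quantile scaling 4, 2 and 2 signalling genes were lower. Over all tested genes 2420, 1507 and 1527 were then lower. Whether counts this small differ from those shares was not tested. The platelet chemokines Pf4 and Ppbp, whose symbols keep older names, were not called: Pf4 was at 29.56, 29.75 and 30.58 FPKM in aged and 33.88, 32.65 and 33.49 FPKM in young libraries (limma adjusted p = 0.0812), and Ppbp at 1.61, 9.01 and 2.17 FPKM in aged and 0.81, 1.35 and 1.18 FPKM in young ones (limma adjusted p = 0.1). Aged replicate 2 held the high value of Ppbp and also the highest sum of 4 platelet markers, 7.79 FPKM against 3.64 and 3.96 FPKM in the other aged libraries.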

How the data were processed

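Poly(A) messenger RNA of heart ventricle was sequenced on BGIseq500, per the labels' protocols. The authors deposited FPKM for 18181 genes in 6 libraries, to 2 decimals, per the file headers; 277 genes were at 0 in every library. RSEM 1.2.12, Bowtie2 2.2.5, DESeq2 1.4.5, HISAT2 2.0.4 and the build mm10 are named in the submitters' processing notes, without roles. Annotation, filters and depth: not given in the sources used here. Samples were grouped by labelled age.

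Aged minus young was fitted with limma 3.58.1 in R 4.3.3 (eBayes with a mean trend, two-sided) on log2(FPKM + 1), over 11860 genes whose mean reached 1 FPKM; such differences understate the change of low genes, and folds are ratios of mean FPKM. The fit was tested on simulated data. With 3 against 3, no exact permutation p can fall below 0.1. Members and lists were chosen with earlier results of these data known. Each member with a mean of at least 1 FPKM was named, lower ones if a library reached 1 FPKM or ages did not overlap, and up to 4 called genes per list by statistic; Ccr8, Ccr9, Ccr10, Il1b, Rela, single markers and genes named to complete a count were added after their values were seen. Values of some genes that this rule covers are not reported here. Fragment worth was estimated with GENCODE vM21 transcript lengths less 60 bases, a rough estimate, so no count model was run. Coordinates are GRCm38 (RefSeq). Alternatives changed the pseudocount (0.1), the filter (none, or means of 5 or 0.25 FPKM), the scaling (quantile, median-of-ratios or TPM), the prior variance (robust, or without the trend) and the weights (per library), added a replicate block, left out each library in turn, or kept aged replicate 3 alone of the aged ones (the single-library fit). Python 3.11.15 with pandas 2.3.3 and matplotlib 3.10.9 drew the figures.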

Additional observations from a re-analysis of the deposited data

How the results depend on the processing

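Of 540 values of single ligands and receptors under the alternatives (31 genes), 476 kept direction and side of the threshold, 44 lost a call, 4 gained one (all Ccl9) and 16 turned sign, all in genes not called. Ccl8, Ccl11, Cxcl14, Cxcl13, Ccl7, Cx3cl1 and Cx3cr1 were called in every alternative that tested them. Of ligands 9 were higher and 2 lower (11 called); the lower count was 1 with no filter on low values, and with a minimum mean of 5 FPKM, where 10 ligands were tested, 4 were called, 4 higher and 0 lower. In the single-library fit, of aged replicate 3 against the young, 7 ligands were called, with 0 lower, and 2 receptors, 0 higher and 2 lower; over all genes 1011 were called, 454 higher and 557 lower, with fewer samples. Leaving out 1 library gave 8 to 11 ligands called (7 to 8 higher, 1 to 3 lower), 2 to 4 receptors (0 to 1 higher, 2 to 3 lower) and 1882 to 2927 genes (711 to 1020 higher, 1171 to 1974 lower), the lowest 3 gene counts without young replicate 3. Without young replicate 2, 809 genes were higher and 1255 lower, and without aged replicate 1, 803 and 1356. Receptors higher were 2 with no filter and with a minimum mean of 0.25 FPKM, where more receptors were tested; with a minimum of 5 FPKM, where 3 were tested, 1 was called, 0 higher and 1 lower. Median-of-ratios and quantile scaling each called 3 receptors, 2 of them lower. Higher genes made up 35.3% of all calls (1105 higher, 2026 lower) as deposited, 28% on TPM (943 and 2420), 49.6% with median-of-ratios (1483 and 1507) and 46.4% with quantile scaling (1321 and 1527). The replicate numbers do not pair the samples (correlations of deviations 0.0413, -0.0795 and 0.0378 for same-numbered libraries); with the replicate block 1002 genes were higher and 1783 lower, ligands stayed at 9 and 2 in number, and Ackr2 had limma adjusted p = 0.0515.

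Sign turned for Ccl21c and Ccl21d (log2 difference -0.0432), Cxcr2 (0.0313), Ccrl2 (-0.125) and Ackr3 (0.0859) in the single-library fit, and for Ackr3 with median-of-ratios scaling (0.0485) and library quality weights (0.0255). Leaving out 1 library, log2 differences ranged from -0.00845 to 0.287 for Ccl27b, -0.0521 to 0.345 for Ccl21c and Ccl21d, -0.31 to 0.0246 for Ccl12, -0.0994 to 0.353 for Ccl6 and -0.0841 to 0.047 for Ackr3. The cause of these changes was not tested beyond the smaller number of genes or samples named. Single-digit fragment estimates limit the young levels of Ccl8, Ccl11 and Cxcl13.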
